A study of Mus musculus with 6 samples.

Results

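Transcripts of 10 glutathione transferases were compared in the liver of DUhTP (marathon) and DUC mice: Gsta2, Gsta3 and Gsta4 of the alpha class, Gstp1 of the pi class, Gstt1, Gstt2 and Gstt3 of the theta class, Gstk1 of the kappa class, Gsto1 of the omega class and Mgst1, the membrane-bound microsomal form. They were chosen by gene symbol, with earlier results of these data known. Every probe set with one of these symbols as its only symbol was taken, which gave 13 of the 22626 probe sets tested and 10 of 12393 genes. DUhTP mice come from a non-inbred line bred over many generations for high treadmill performance, and DUC mice are the unselected line of the same origin, a cross of several outbred and inbred strains. Both lines were represented by liver of males at an age of 70 days, without treatment, on 3 arrays each and 6 in all. By the study's methods an array held a pool of animals, by its labels a single mouse, so the spread given here is one among arrays.

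Glutathione transferases join the thiol of glutathione to reactive electrophiles, such as products of lipid peroxidation and of cytochrome P450 reactions, and the conjugates are then carried out of the cell and processed to mercapturic acids. The cytosolic alpha, pi, theta and omega enzymes and the mitochondrial and peroxisomal kappa enzyme differ in substrate. Mgst1 belongs to an unrelated family of membrane proteins. In mouse liver several of these genes are induced through NRF2, a transcription factor that binds antioxidant response elements.

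Of the 13 probe sets, 1 rose, 1 fell and 11 did not pass the test. Gsta3 rose on one of its 2 probe sets (FC 1.84) and Gstk1 fell (FC -1.61) in DUhTP mice versus DUC. Over all tested probe sets 2.41% were past an adjusted p under 0.05 (1.36% higher and 1.05% lower in DUhTP mice). An FC over 2, which 1.45% of all probe sets exceeded together with the adjusted p, was reached by 0 called members. By gene, 2 of 10 members were called, against 3.32% of all genes. In 8 of 13 probe sets the 3 DUhTP arrays did not overlap the 3 DUC arrays, 7 higher and 1 lower, against 29.4% of all probe sets (13.6% higher and 15.8% lower). The median log2 fold change was 0.13 over the 13 probe sets and -0.02 over all tested probe sets.

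The upstream sequence of the called members is shown to give the genomic context of each start, and that of Gsta2 as an alpha class gene without a call. Each is the 250 bases before a transcript start in RefSeq (GRCm38.p6), from 5′ to 3′ on the strand of the gene. Capitals mark letters of 3 motifs searched on both strands: TGACNNNGC, the core of the antioxidant response element, GCGTG, the core of the element bound by the aryl hydrocarbon receptor, and TATAAA, the TATA box.
Gsta3, chr1:21240335-21240584, plus strand: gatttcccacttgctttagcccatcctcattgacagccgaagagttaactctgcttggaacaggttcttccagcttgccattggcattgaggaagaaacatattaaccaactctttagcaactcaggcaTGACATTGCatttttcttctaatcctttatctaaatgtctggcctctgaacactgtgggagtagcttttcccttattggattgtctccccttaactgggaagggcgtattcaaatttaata
Gsta2, chr9:78347146-78347395, minus strand: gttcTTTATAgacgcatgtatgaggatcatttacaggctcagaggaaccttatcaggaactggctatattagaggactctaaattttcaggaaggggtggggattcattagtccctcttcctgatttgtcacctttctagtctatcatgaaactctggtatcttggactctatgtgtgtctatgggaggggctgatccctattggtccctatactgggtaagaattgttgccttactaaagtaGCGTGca
Gstk1, chr6:42245685-42245934, plus strand: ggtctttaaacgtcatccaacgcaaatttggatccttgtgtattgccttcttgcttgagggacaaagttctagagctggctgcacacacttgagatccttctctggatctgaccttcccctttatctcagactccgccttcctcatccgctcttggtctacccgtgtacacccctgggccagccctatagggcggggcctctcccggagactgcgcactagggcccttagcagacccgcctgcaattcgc
In the Gsta3 sequence the capitals are 1 match to TGACNNNGC, which begins 121 bases before the start. In the Gsta2 sequence they are TATAAA on the opposite strand, 246 bases before the start, and GCGTG at 7 bases before it. The Gstk1 window held 0 matches. Among 32841 such upstream windows, 10.2% held TGACNNNGC, 28.2% held GCGTG and 12.4% held TATAAA. A sequence was at hand for 8 of the 10 members, with 10 starts in all, and the only other match to TGACNNNGC was on the opposite strand 56 bases before one of 2 starts of Mgst1. These are matches of letters and not binding sites.

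Gsta3, an alpha class enzyme of the mouse with high activity toward the epoxide of aflatoxin B1, had the lowest p of the members. On probe set 1423437_at its intensity, a linear value in arbitrary units, was 4332, 3845 and 4599 in DUhTP replicates 1, 2 and 3 and 2499, 2157 and 2276 in DUC replicates 1, 2 and 3. All DUhTP arrays lay above all DUC arrays. Intensity averaged 4259 ± 382 in DUhTP and 2311 ± 174 in DUC livers (SD, n = 3 each). The log2 fold change was 0.88, with a standard error of 0.12 and an adjusted p = 0.0324 in limma, adjusted over all probe sets by the Benjamini-Hochberg method. The brighter probe set 1423436_at read 6756, 5905 and 6950 in DUhTP and 4563, 4349 and 3997 in DUC mice. It too was higher in every DUhTP array, with an FC of 1.52, and did not pass (adjusted p = 0.0670 in limma). The log2 ratio of 1423437_at to 1423436_at was -0.64, -0.62 and -0.60 in DUhTP arrays and -0.87, -1.01 and -0.81 in DUC arrays, so the probe sets of this gene gave differences of unequal size.

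The call of Gsta3 was lost without any 1 array. Over all probe sets such a loss of 1 array left 1 to 122 calls of 546. In limma the adjusted p was 0.0967, 0.0611 and 0.0906 when DUhTP replicate 1, 2 or 3 was left out. Dropping a DUC array, number 1, 2 or 3, gave 0.0976, 0.134 and 0.137. The log2 fold change itself stayed between 0.82 and 0.95. With 16 added to every intensity before the log, which left the FC at 1.84, the adjusted p was 0.00203, and it was 0.0174 at most without any 1 array. With the same constant 1423436_at passed as well (adjusted p = 0.0128 in limma).

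Gsta4, which conjugates 4-hydroxynonenal, an aldehyde of lipid peroxidation, read 1330, 1382 and 1684 in DUhTP mice versus 951, 824 and 780 in DUC mice. The arrays of the lines did not overlap. Its FC was 1.72, with a log2 fold change of 0.78, a standard error of 0.15 and a 95% interval of 0.42 to 1.14, and it was not past the test in limma (adjusted p = 0.0584). It passed once 16 was added (adjusted p = 0.00727), where 8.62% of all probe sets passed, and with limma-trend (adjusted p = 0.00177), where 10.4% passed. With 16 added it also passed without any 1 of the 6 arrays (adjusted p = 0.0460 at most).

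Gsta2, an inducible alpha class enzyme whose gene is on another chromosome than Gsta3, differed little. Its intensity was 1362, 1392 and 1410 in DUhTP and 1288, 1135 and 1280 in DUC mice. The lowest DUhTP array lay above the highest DUC array, but the FC was 1.13 and the 95% interval of the log2 fold change, -0.09 to 0.43, included 0 (adjusted p = 0.414 in limma). A further probe set, 1421041_s_at, carries the symbols Gm3776, Gsta2 and Gsta1 and was not counted. It read 1201, 1266 and 1389 in DUhTP and 1238, 1034 and 981 in DUC mice, with overlap and a log2 fold change of 0.25.

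**Figure D1:**
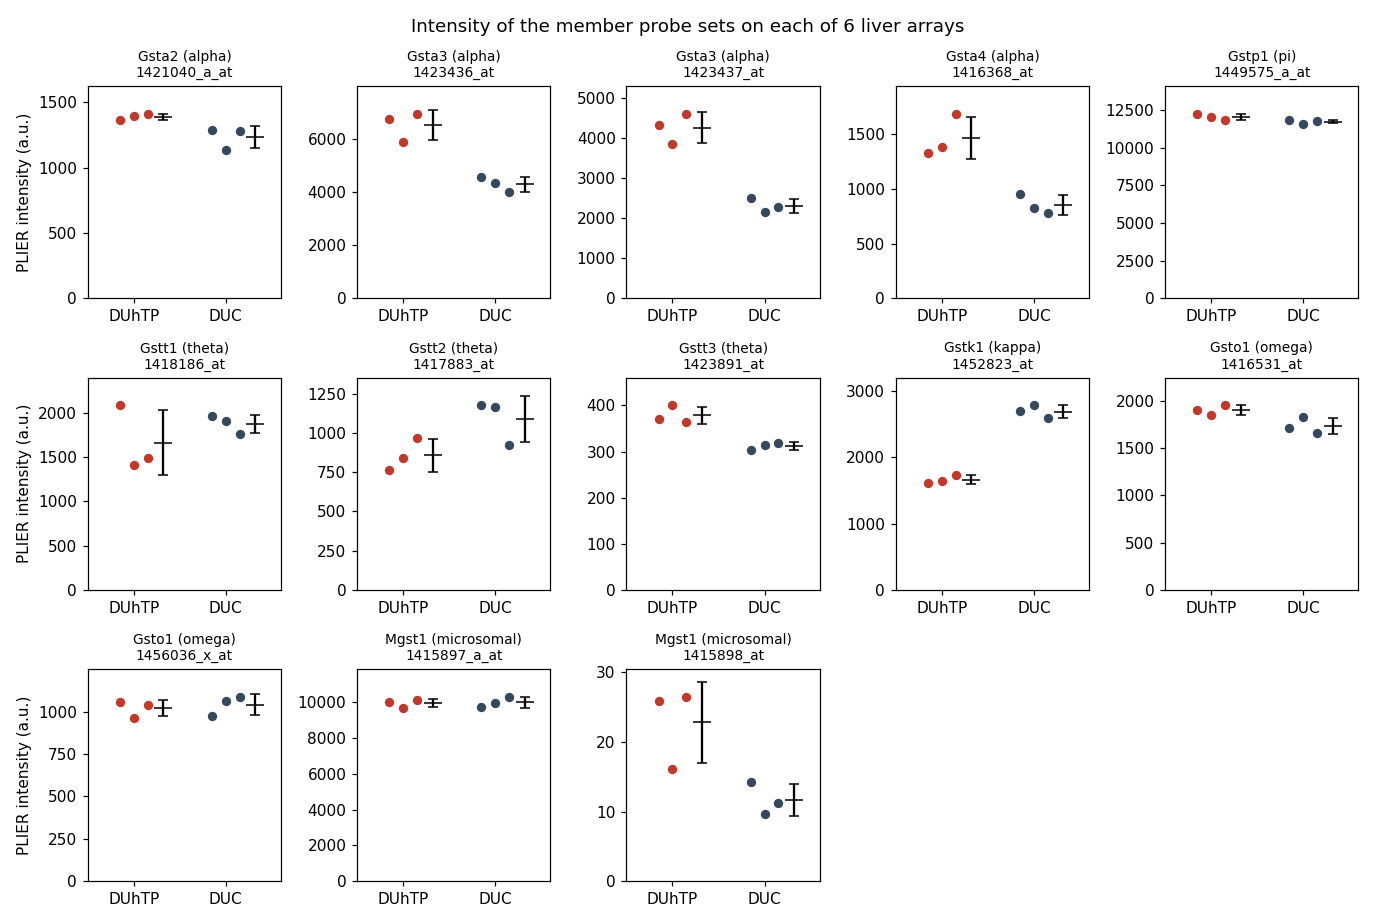
PLIER intensity (arbitrary units, linear axis from 0) of the 13 probe sets on the 3 DUhTP and 3 DUC arrays, each point an array and each black mark the mean with its SD. The lines are separate in both Gsta3 panels, in Gsta4 and in Gstk1. They are also separate in Gsta2, Gstt3, 1416531_at of Gsto1 and the dim Mgst1 probe set. Gstp1 and the bright Mgst1 probe set are level.

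The alpha class genes were also set against each other within each array. The log2 ratio of Gsta3 to Gsta2 on the same array, each by its brightest probe set, was 2.31, 2.09 and 2.30 in DUhTP and 1.82, 1.94 and 1.64 in DUC mice. That of Gsta4 to Gsta2 was -0.04, -0.01 and 0.26 in DUhTP and -0.44, -0.46 and -0.71 in DUC mice. Neither ratio overlapped between the lines (2-sided exact permutation test, p = 0.1 each, the smallest that 3 against 3 arrays can give). The ratio of Gsta3 to Gsta4 overlapped, with a difference of -0.18 (exact permutation p = 0.2). In all, 9 such ratios were compared, over alpha pairs, theta pairs and pairs of probe sets of a gene, of which 6 did not overlap. The lowest adjusted p by the exact permutation test was 0.15. These ratios reuse the intensities given for the single probe sets, and a share of such ratios without overlap over all probe sets was not computed.

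Gstk1, the kappa enzyme of mitochondria and peroxisomes, was the member that fell. It read 1612, 1643 and 1737 in DUhTP mice and 2691, 2782 and 2587 in DUC mice. The highest DUhTP array was far below the lowest DUC array. Intensity averaged 1664 ± 64.9 in DUhTP and 2687 ± 97.7 in DUC livers (SD, n = 3 each). The log2 fold change was -0.69, with a standard error of 0.10 and an adjusted p = 0.0342 in limma. Leaving out DUhTP replicate 1, 2 or 3 ended this call (adjusted p = 0.101, 0.0830 and 0.0858 in limma). So did leaving out DUC replicate 1, 2 or 3 (adjusted p = 0.123, 0.143 and 0.135). The log2 fold change stayed between -0.72 and -0.67. Once 16 was added before the log, Gstk1 was called with all arrays (adjusted p = 0.00395) and without any 1 of them (0.0272 at most).

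The theta class, which lacks the catalytic tyrosine of the alpha and pi enzymes and acts on small halogenated compounds, had 3 genes with 1 probe set each, and 0 of the 3 passed the test. Gstt3 read 371, 400 and 363 in DUhTP and 303, 314 and 318 in DUC mice. Every DUhTP array was above every DUC array, with an FC of 1.21 and an adjusted p = 0.20 in limma. Gstt2 went the other way, with 761, 838 and 968 in DUhTP and 1175, 1166 and 921 in DUC mice. Its lines overlapped through DUhTP replicate 3 and DUC replicate 3, and the FC was -1.27 (adjusted p = 0.283).

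Gstt1, whose human counterpart is often deleted in the population, read 2081, 1405 and 1490 in DUhTP and 1956, 1907 and 1756 in DUC mice. DUhTP replicate 1 was the highest of all arrays and the other DUhTP arrays were the lowest. The FC was -1.15 (adjusted p = 0.578 in limma), and without DUhTP replicate 1 the log2 fold change was -0.37 in place of -0.20. In RefSeq Gstt1 and Gstt3 are neighbours without another protein coding gene between them, and 1 such gene lies between Gstt1 and Gstt2. The log2 ratio of Gstt3 to Gstt2 did not overlap between the lines and differed by 0.62 (exact permutation p = 0.1).

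Gstp1, the pi class enzyme and a protein more abundant in male than in female mouse liver, was level. It read 12249, 12054 and 11809 in DUhTP and 11839, 11608 and 11746 in DUC mice. The lines overlapped, with an FC of 1.03 and a 95% interval of the FC of 0.872 to 1.21 (adjusted p = 0.863 in limma). Its intensity was in the upper part of the scale, where the highest value on any array was 17301, and whether the signal was near saturation was not tested.

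Mgst1, which also reduces lipid hydroperoxides in the endoplasmic reticulum and outer mitochondrial membrane, was level on its bright probe set 1415897_a_at, with 10000, 9655 and 10087 in DUhTP and 9696, 9922 and 10275 in DUC mice. The log2 fold change was -0.01, with a 95% interval of -0.25 to 0.23. The dim probe set 1415898_at read 25.8, 16.1 and 26.5 in DUhTP and 14.2, 9.68 and 11.2 in DUC mice, below the array medians of 53.1 to 57.0. All DUhTP arrays were above the DUC arrays there, with an FC of 1.92 (1.39 with 16 added) and an adjusted p = 0.119 in limma. With 16 added it did not pass with all arrays (adjusted p = 0.0618 in limma) and passed only without DUhTP replicate 2 (adjusted p = 0.0185), its lowest DUhTP array.

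Gsto1, the omega enzyme, which has thiol transferase and dehydroascorbate reductase activity, was also close between the lines. Probe set 1416531_at read 1903, 1846 and 1952 in DUhTP and 1714, 1825 and 1661 in DUC mice. These did not overlap, yet the log2 fold change was 0.13 with a 95% interval of -0.12 to 0.38 (adjusted p = 0.504 in limma). Probe set 1456036_x_at read 1056, 965 and 1040 in DUhTP and 972, 1062 and 1086 in DUC mice, with overlap and an FC of -1.02.

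**Figure D2:**
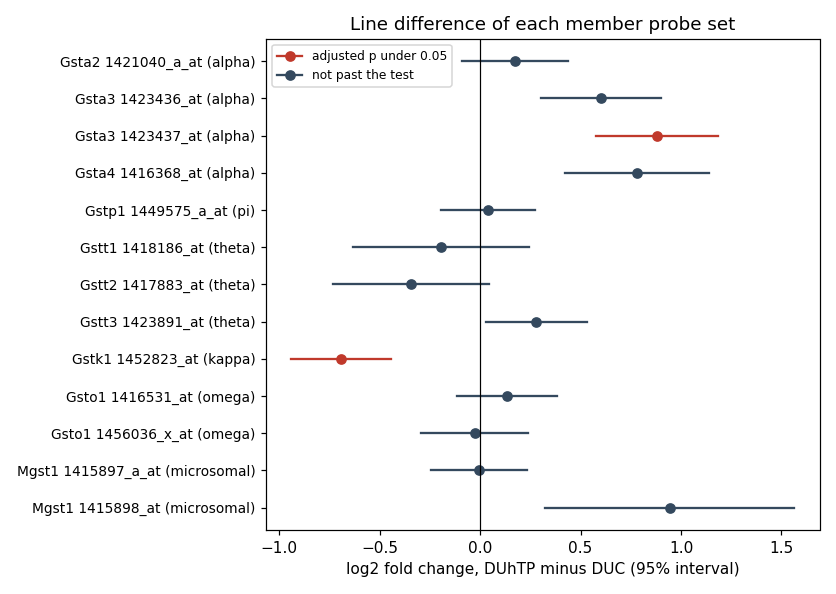
Log2 fold change (DUhTP minus DUC) of each of the 13 probe sets with its 95% interval from limma, red where the adjusted p was under 0.05. Gsta3 (0.88 on 1423437_at) lies above 0 and Gstk1 (-0.69) below, and the intervals of Gstp1, Gstt1, Gstt2, Gsto1, Gsta2 and the bright Mgst1 probe set include 0. Those of 1423436_at of Gsta3, Gsta4, Gstt3 and the dim Mgst1 probe set exclude 0 without a call, as the intervals are not adjusted over all probe sets.

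The number of called members varied with the setting. It was 2 of 13 with quantile normalization (3.02% of all probe sets) and with array weights (3.05%), and again 2, of 9, after leaving out probe sets named as matching more than 1 transcript (1.78%). It was 4 with 16 added (8.62%), with limma-trend (10.4%) and, of 12, without the dimmest 33.3% of probe sets (12.3%). In each of these last 3 settings the 4 were both Gsta3 probe sets, Gsta4 and Gstk1. Without any 1 array, and with the replicate number as a block, 0 of 13 passed in limma, while 6 of 13 had an unadjusted p under 0.05 with all arrays, against 21.1% of all probe sets.

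**Figure D3:**
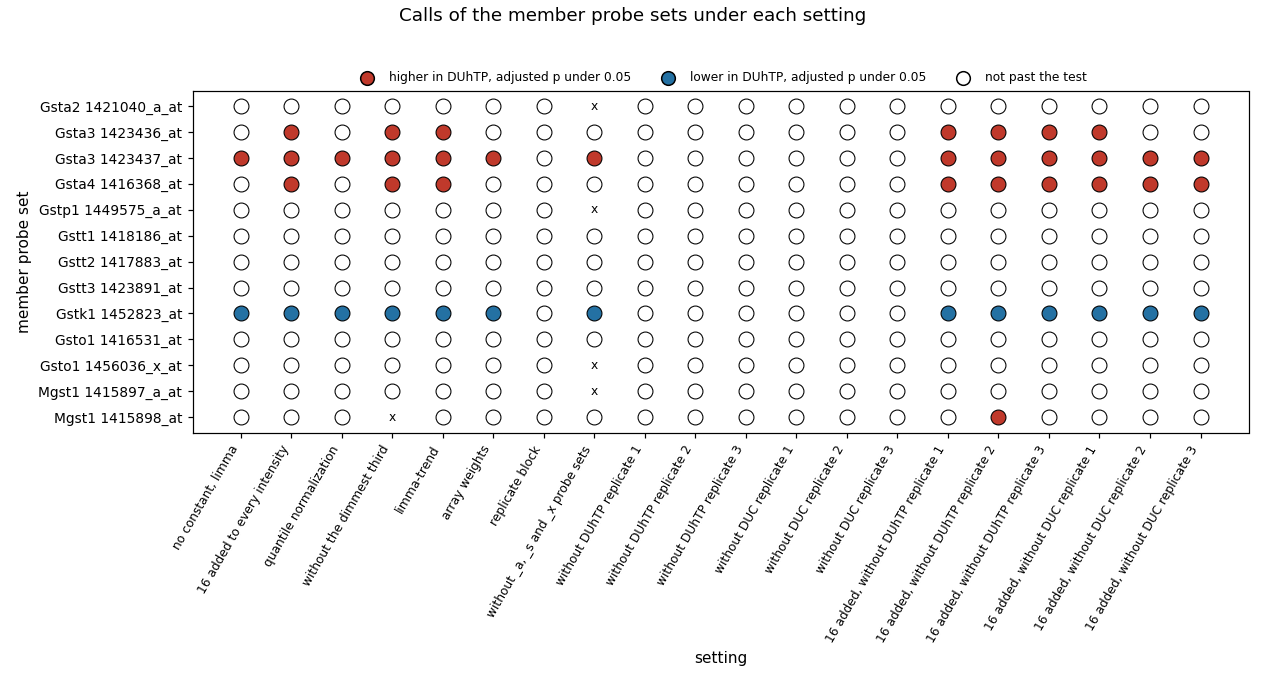
Call of each member probe set (down) under 20 settings (across), red where higher and blue where lower in DUhTP mice at an adjusted p under 0.05, open where the test was not passed and x where the probe set was left out. Gsta3 on 1423437_at and Gstk1 are called together in all settings but the replicate block and those that leave out 1 array without an added constant.

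The other genes of glutathione metabolism were counted from lists of known roles. In synthesis and breakdown of glutathione 1 of 16 measured genes rose and 1 fell, with a median log2 fold change of -0.02. Gclc, the catalytic subunit of glutamate cysteine ligase and the first step of synthesis, rose to 3374, 3200 and 3625 in DUhTP mice, against 1945, 2086 and 2079 in DUC mice (FC 1.67, adjusted p = 0.0335 in limma). Cth, cystathionine gamma-lyase, which supplies cysteine, fell to 2841, 2837 and 2839 in DUhTP mice, against 5771, 5691 and 5804 in DUC mice (FC -2.03, adjusted p = 0.0141). Neither overlapped. Lap3, a leucine aminopeptidase, and Cbs, cystathionine beta-synthase, did not pass, with log2 fold changes of 0.07 and -0.05.

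Among glutathione-dependent peroxidases and thiol enzymes 1 of 12 rose and 0 fell (median log2 fold change 0.15). The one was Ethe1, a mitochondrial persulfide dioxygenase that uses glutathione persulfide, at 1459, 1510 and 1573 in DUhTP and 760, 712 and 642 in DUC mice (FC 2.15, adjusted p = 0.0180 in limma). Gpx1, the cytosolic peroxidase, had a log2 fold change of 0.12, and Glo1, a glyoxalase that needs glutathione, had one of 0.44, and neither passed in this fit (adjusted p = 0.520 and 0.146).

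Of 13 other measured glutathione transferases and related enzymes, those of the mu class among them, 4 rose and 0 fell, with a median log2 fold change of 0.40. Besides Gstm3 (FC 2.63), these were Gstm6 at 536, 552 and 543 in DUhTP and 245, 218 and 151 in DUC mice (FC 2.71), Gstm2 (FC 1.73) and Gstm7 (FC 1.68), with an adjusted p of 0.0387 at most in limma. The log2 difference of Gstm1, a major mu class enzyme of liver, was 0.26 (adjusted p = 0.204), and that of Gstz1, the maleylacetoacetate isomerase of tyrosine breakdown, was 0.42 (adjusted p = 0.124). Mu class transcripts are similar to each other, so signal of one may reach the probe set of another.

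For export of conjugates and mercapturate formation 1 of 9 measured genes rose and 0 fell (median log2 fold change 0.15). Nat8, the N-acetyltransferase that completes mercapturic acids, read 308, 283 and 347 in DUhTP and 111, 70.8 and 101 in DUC mice (FC 3.36, adjusted p = 0.0221 in limma). Of the transporters, Abcc3 stood at -0.06 and Abcg2 at 0.14 on the log2 scale, neither past the test. In the NRF2 list 1 of 22 rose, which was Gclc, and 1 fell, which was the carbonyl reductase Cbr1 (FC -1.85, adjusted p = 0.0473). Its median log2 fold change was 0.09, and Ephx1 and Tkt did not pass in this fit (-0.32 and 0.33). Gclm, Nqo1, Hmox1, Srxn1 and Txnrd1 of this list had log2 fold changes of 0.004, 0.04, 0.09, -0.14 and -0.15, none past the test.

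Without any 1 array the calls of Gclc, Ethe1, Gstm2, Gstm6, Gstm7, Nat8 and Cbr1 were lost in limma (adjusted p up to 0.137, 0.0944, 0.146, 0.119, 0.145, 0.0999 and 0.167). Cth lost its call in 5 of the 6 cases (up to 0.0885) and Gstm3 in 4 (up to 0.0773). With 16 added to the intensities each of these 9 was called without any 1 array, with an adjusted p of 0.0309 at most.

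Other settings called more genes of 4 of these lists, and these counts were added after the data were seen. Calls over all probe sets also became more frequent, from 2.41% to 8.62% with 16 added and 10.4% with limma-trend. A share of all genes was not computed for these 2 settings. With 16 added, 4 of 22 genes of the NRF2 list rose (Gclc, Pgd, Taldo1 and Aox1) and 2 fell (Cbr1 and Me1). With limma-trend 5 rose, Tkt in addition, and 4 fell, Ephx1 and Ugdh in addition. Of the 12 peroxidases and thiol enzymes, 4 rose in both settings, which were Ethe1, Glo1, Hagh and Glrx2. With 16 added the brightest probe sets of Glo1, Glrx2 and Me1 did not pass (adjusted p = 0.0567, 0.0649 and 0.0563 in limma). In that setting these genes were counted through another probe set. Of the 13 other glutathione transferases, 5 rose with 16 added, Gstz1 in addition, and 7 with limma-trend, where Gstm1 and Gstm4 were called as well. For export and mercapturate formation 2 of 9 rose in both, Nat8 and Acy3, and 1 fell, Abcc2. Synthesis and breakdown of glutathione had the same 2 calls, Gclc and Cth, in both settings.

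**Figure D4:**
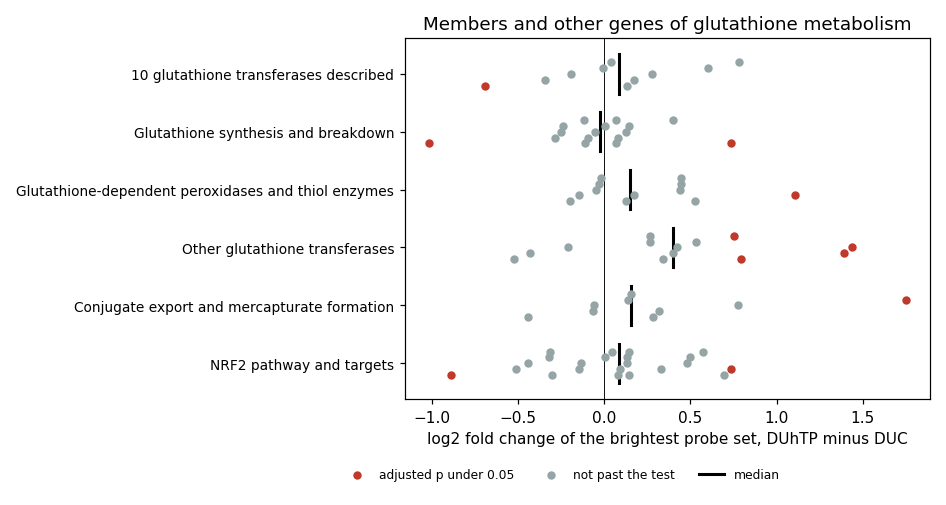
Log2 fold change (DUhTP minus DUC) of the brightest probe set of each gene, for the 10 members and 5 lists of glutathione metabolism, each point a gene, red at an adjusted p under 0.05, with a bar at the median. Medians were 0.09 for the members and 0.40 for the other glutathione transferases, and Gsta3 is grey here because its brighter probe set did not pass.

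The profile most like that of Gsta3 on 1423437_at over the 6 arrays was that of Slc2a2, followed by Cox19, a copper chaperone for cytochrome c oxidase, and Adgrv1, an adhesion receptor. Likeness was the root mean square difference of log2 intensity, each profile centred on its own mean, and was 0.061, 0.064 and 0.064. The FC was 1.79 for Slc2a2, 1.97 for Cox19 and 1.76 for Adgrv1. The other probe set of Gsta3 was less like it, at 0.15.

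Log2 intensities correlated at 0.959 or more among DUhTP arrays, 0.974 or more among DUC arrays and 0.950 or more between the lines. Expression of the hepatocyte marker list summed to 86936 to 88974 on DUhTP and 91452 to 97289 on DUC arrays. Of its 9 markers, 0 were past the test higher and 1 lower, and with limma-trend 2 were lower. Kupffer cell and macrophage markers summed to 4046 to 5224 in DUhTP and 2773 to 3679 in DUC mice (7 of 9 higher without overlap, against 13.6% of all probe sets, of which 1 rose). With 16 added 6 of the 9 rose and Marco fell, and with limma-trend 6 rose and 0 fell. Exocrine pancreas markers summed to 997 to 4075 in DUhTP and 4674 to 8995 in DUC mice, with 7 of 9 lower without overlap, against 15.8% of all probe sets. Their median log2 fold change was -2.55, with 0 of 9 past the test in the fit without a constant, 4 lower with 16 added and 5 lower with limma-trend. Of the remaining marker lists, cholangiocyte, endothelial and lymphocyte markers had 0 called of 5, 8 and 7. The endothelial marker Stab2 rose with 16 added and with limma-trend. Stellate cell and fibroblast markers had 1 of 8 higher (2 with 16 added and 3 with limma-trend). Erythroid markers had 1 of 3 higher (sums of 1283 to 1657 in DUhTP and 761 to 846 in DUC mice). This was Alas2, which made up most of these sums, at 1558, 1187 and 1203 in DUhTP and 715, 763 and 650 in DUC mice. Hba-a1 and Slc4a1 overlapped between the lines and did not pass. Of 8 measured male-biased liver genes 1 rose and 0 fell, and of 12 female-biased genes 1 rose and 2 fell. With 16 added and with limma-trend 2 female-biased genes rose, and the other counts of the sex-biased lists were unchanged. The part of any of these in the differences of Gsta3 and Gstk1 was not tested, and in whole liver fewer cells of a type and less RNA per cell cannot be told apart.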

How the data were processed

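Liver RNA of 3 DUhTP and 3 DUC samples was measured on Affymetrix mouse expression arrays. The deposited intensities were made by the authors with GCOS 1.1.1, global scaling, Array Assist and PLIER, and are linear values in arbitrary units. The PLIER version and an added constant are not given in the sources used here. Of 22690 probe sets, 64 controls were left out. Symbols came from the array annotation, where 20380 probe sets have 1 symbol, 691 several and 1555 none. All 10 member genes were matched to RefSeq by gene number.

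Intensities were logged to base 2 without a constant, and limma 3.58.1 (R 4.3.3) compared DUhTP with DUC without a block, as same-numbered arrays did not deviate together (r = 0.003, 0.005 and 0.07). Values of p were adjusted over all probe sets by the Benjamini-Hochberg method, and an adjusted p under 0.05 was called. A negative FC means lower in DUhTP mice. The probe set of highest mean stands for a gene unless another is named, and a list gene was counted where any of its probe sets passed. Calls were recomputed with 16 added, quantile normalization, array weights, limma-trend, filters and without each array. The number of arrays limits the precision, and since the methods give pools and the labels single mice, p measures the spread among arrays, whichever these were. All members were named, with up to 6 called and 2 other bright genes per list of glutathione metabolism, while the lists of sex-biased genes are given by counts. From the NRF2 list Gclm, Nqo1, Hmox1, Srxn1 and Txnrd1 were named in addition, after their values were seen. The members and lists, 7 of pathways and 8 of cell markers, were chosen with earlier results of these data known. The procedure was tested on simulated data.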

Additional observations from a re-analysis of the deposited data

How the results depend on the processing

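Over all 22626 probe sets 546 were called in limma. There were 1951 with 16 added, 2350 with limma-trend, 1851 of 15084 without the dimmest 33.3%, 4769 at an unadjusted p under 0.05, 277 without probe sets named for multiple matches and 0 with the replicate number as a block. Leaving out 1 array gave 1 to 122 calls, the lowest without DUC replicate 2, and with 16 added it gave 1591, 1570 and 1530 when a DUhTP array was dropped, and 961, 771 and 773 when a DUC array was. With an FC over 2 in addition, 327 became 337 with 16 added, 557 with limma-trend, 879 at an unadjusted p, 192 without multiple matches, 0 with the block and 1 to 122 without 1 array. Of the members, 2 probe sets were called, against 4 with 16 added, limma-trend or without the dimmest 33.3%, 6 unadjusted, 0 with the block, 0 to 0 without 1 array and 3 to 5 with 16 added and without 1 array. By gene 2 members were called, against 5 unadjusted, 0 with the block, 0 to 0 without 1 array and up to 4 with 16 added and without DUhTP replicate 2. Same-numbered arrays did not deviate together (r = 0.003, 0.005 and 0.07), and the labels do not say whether the replicate numbers pair the arrays.

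Direction turned for values near 0. The log2 fold change of Gsto1 1456036_x_at ranged from -0.076 to 0.0121 without 1 array, and with 16 added it was 0.0119 without DUhTP replicate 2 and 0.0046 without DUC replicate 3. That of Mgst1 1415897_a_at ranged from -0.0267 to 0.0152, was 0.0452 after quantile normalization, and with 16 added was 0.0118 without DUhTP replicate 2 and 0.0152 without DUC replicate 3. Cbs ranged from -0.11 to 0.0297 and Abcc3 from -0.17 to 0.15, and with 16 added they had 0.0294 and 0.15 without DUhTP replicate 3. Mgst1 taken by its probe set with the smallest p had 0.94. The causes were not tested. Of the recomputed values 546 kept direction and side of the threshold or, for counts, stayed close to the first count. By this rule 3 member genes with 16 added, against 2, were taken as kept. Of the others, 97 lost a call or gave a lower count, 34 gained one or gave a higher count and 14 turned. The number of arrays, 3 per line, limits the precision.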

Other observations

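Gstp3, a further pi class gene, is not among the 10 members and on no list, and was chosen after its values were seen. It read 739, 639 and 506 in DUhTP and 914, 932 and 850 in DUC mice. The lines did not overlap, as in 29.4% of all probe sets. Its FC was -1.45 (adjusted p = 0.152 in limma, and 0.0269 with limma-trend), beside an FC of 1.03 for Gstp1. The difference between these 2 genes was not tested.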
